A study of Homo sapiens with 32 samples.

Results

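Binding of the HNF4α isoform P1-α2 was compared between the pancreatic ductal adenocarcinoma (PDAC) cell lines Panc10.05 and BxPC3. Of the 32 samples of the series, 18 were immunoprecipitated libraries with a peak list, and 4 of those 18 make this comparison, 2 replicates in each line. Panc10.05 and BxPC3 are human lines in which doxycycline switched on the chosen isoform. Panc10.05 cells received 25 ng/mL and BxPC3 cells 500 ng/mL of doxycycline, and each replicate started from the same number of cells, crosslinked with disuccinimidyl glutarate and then formaldehyde. Chromatin was precipitated with an antibody that recognises all HNF4α isoforms, so any endogenous HNF4α is included in the lists. The library names put each line in a library series of its own, so cell line, series and doxycycline dose cannot be told apart. Used beside these are the lists of the same lines with the other isoform, P2-α8 (12.5 ng/mL in Panc10.05 and 500 ng/mL in BxPC3, 2 replicates each), and 2 lists of AsPC1, a PDAC line profiled without induction, with the control guide sgNC and the same antibody. For the BxPC3 P2-α8 libraries the genotype label, not the title, gave the isoform.

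HNF4α is a nuclear receptor that binds DNA as a homodimer, at direct repeats of a half-site with a spacing of a single base, and keeps liver, gut and kidney epithelium differentiated. Its gene has a distal and a proximal promoter, P2 and P1. Isoforms from P1, such as α2, carry an N-terminal activation domain that isoforms from P2, such as α8, lack, while both share the DNA-binding and ligand-binding domains. In PDAC, HNF4α is known as a marker and regulator of the classical, gut-like subtype as opposed to the basal-like subtype.

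Peaks of the 4 P1-α2 lists that overlapped by at least 1 bp were merged into 58619 regions. A region was called Panc10.05-specific when both Panc10.05 lists and neither BxPC3 list held it, BxPC3-specific in the opposite case, and shared when all 4 lists held it. This gave 5438 Panc10.05-specific regions (9.28% of the union), 10922 BxPC3-specific regions (18.6%) and 13980 shared regions (23.8%). The other 28279 regions fell in other combinations, and 18804 regions of the union (32.1%) were held by 1 list alone. The 4 lists held 24828 and 34146 peaks in Panc10.05 and 41808 and 33737 peaks in BxPC3, so the groups overlapped in length, with a log2 difference of -0.37 (exact permutation test, two-sided, p = 0.667). With 2 lists against 2, no such test here can give a p below 0.333, and nothing in the labels says whether replicates came from separate cultures. Class sizes followed list length: with all lists trimmed to 24828 peaks by fold enrichment there were 6257 Panc10.05-specific, 6143 BxPC3-specific and 9854 shared regions. The excess of BxPC3-specific regions was therefore absent at equal length. Without Panc10.05 replicate 1 the rule gave 11406 Panc10.05-specific regions, and without BxPC3 replicate 2 it gave 19570 BxPC3-specific ones.

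**Figure D1:**
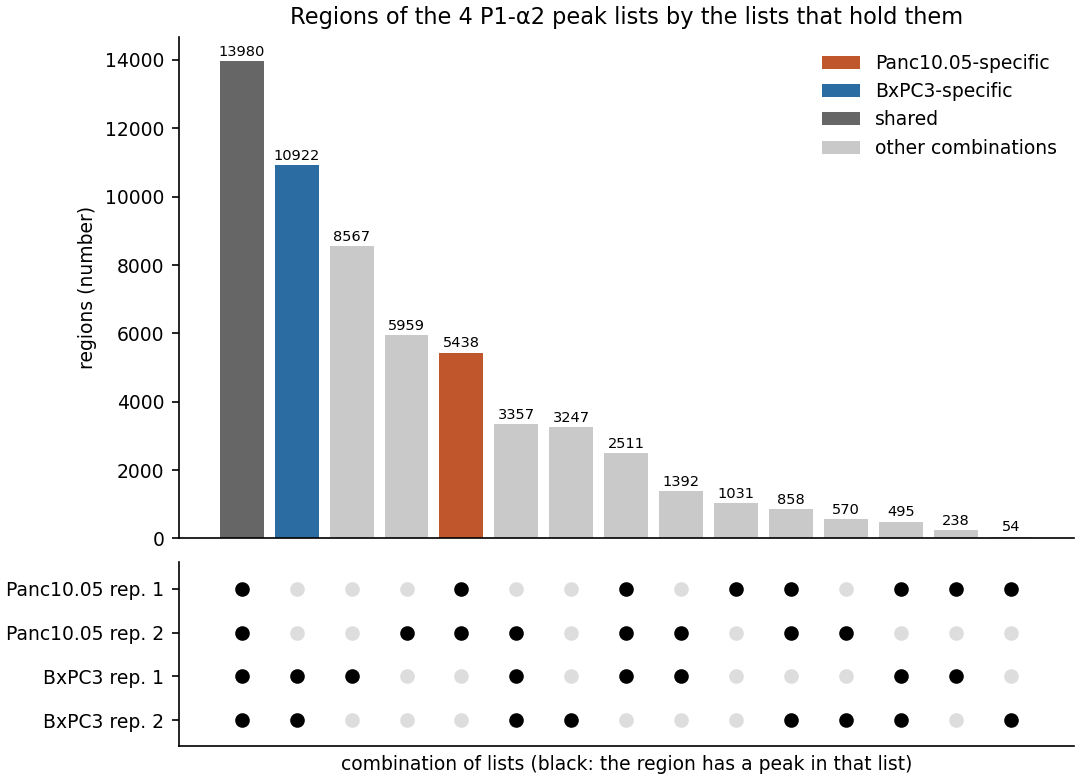
Number of merged regions (vertical axis) for each combination of the 4 P1-α2 lists, with black dots marking the lists that hold the region. The 13980 regions of all 4 lists are the most frequent combination, followed by 10922 regions of both BxPC3 lists alone, and the 5438 regions of both Panc10.05 lists alone follow further down.

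The letters of HNF4 motifs were searched in promoters that overlap a region of each class. The motifs CAAAGTCCA and CAAAGTTCA were looked for on both strands in the RefSeq promoters of GRCh38.p14, windows of 300 bases from 250 before to 50 after a start. Either motif stood in 42 of the 950 promoters that overlapped a shared region (4.42%, 95% exact interval 3.20 to 5.93). It stood in 7 of 541 promoters with a Panc10.05-specific region (1.29%, 0.522 to 2.65) and in 1 of 115 with a BxPC3-specific region (0.870%, 0.0220 to 4.75). Over all 22199 promoters the share was 133, or 0.599%. The 541, 115 and 950 promoters are 2.44%, 0.518% and 4.28% of all promoters in the table. The windows of 100 bases printed here have the motif in capitals. Those of F10, NR2F1, CLRN3 and CIDEB end at the start site or within a few bases of it, and those of TRIM40 and BTNL8 end at positions -109 and -87 relative to it. They are shown because they hold a literal HNF4 motif under a P1-α2 region of each class; F10, NR2F1, CLRN3 and BTNL8 followed the naming rule, and TRIM40 and CIDEB were chosen after their values were seen.
F10: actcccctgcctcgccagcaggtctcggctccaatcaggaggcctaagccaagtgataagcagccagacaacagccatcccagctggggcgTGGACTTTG
NR2F1: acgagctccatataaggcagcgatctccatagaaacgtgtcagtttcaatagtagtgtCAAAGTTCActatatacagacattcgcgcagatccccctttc
TRIM40: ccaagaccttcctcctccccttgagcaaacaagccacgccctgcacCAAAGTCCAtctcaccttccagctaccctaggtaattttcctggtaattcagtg
CLRN3: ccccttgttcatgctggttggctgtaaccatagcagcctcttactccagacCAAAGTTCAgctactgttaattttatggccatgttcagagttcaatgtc
BTNL8: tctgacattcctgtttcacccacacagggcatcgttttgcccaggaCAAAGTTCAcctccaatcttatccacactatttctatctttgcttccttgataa
CIDEB: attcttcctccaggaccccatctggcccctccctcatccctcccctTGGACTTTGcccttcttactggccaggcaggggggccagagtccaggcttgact

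Peak strength below is a percentile by fold enrichment within a list, 100 being the strongest peak of that list, and values are given as replicate 1 and then replicate 2. F10 encodes coagulation factor X, and its window (chr13:113122706-113122805, plus strand) lay under a Panc10.05-specific region at percentiles 72.9 and 65.3. NR2F1 encodes the orphan nuclear receptor COUP-TFI, and its window (chr5:93583122-93583221, plus strand) lay under a Panc10.05-specific region at percentiles 60.9 and 5.29, a large gap between replicates. Both regions also had a peak in both Panc10.05 P2-α8 lists and both AsPC1 lists and in neither BxPC3 P2-α8 list. The TRIM40 window (chr6:30135932-30136031, plus strand), of a gene for a tripartite-motif protein, lay under the BxPC3-specific region with a literal motif, at percentiles 91.2 and 59.6. CLRN3 (chr10:127892942-127893041, minus strand) was shared, at 80.8 and 87.8 in Panc10.05 and 97.5 and 92.4 in BxPC3. The window of BTNL8, a butyrophilin-like gene of gut epithelium, (chr5:180898973-180899072, plus strand) was shared at 74.7 and 65.9 against 90.7 and 98.0. CIDEB encodes a lipid droplet protein of hepatocytes and enterocytes, and its shared region over chr14:24307979-24308078 (minus strand) stood at 98.8 and 97.8 in Panc10.05 and at 99.6 and 97.5 in BxPC3. The 3 shared promoters also had a peak in every P2-α8 and AsPC1 list used.

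Replicate lists were more alike within a line than between lines. The Dice overlap of a pair (peaks with a partner in the second list, counted from both sides and divided by the sum of both lengths) was 0.777 within Panc10.05 and 0.767 within BxPC3. Across lines the 4 pairs lay between 0.521 and 0.563. The mean difference was 0.230 (exact permutation test over the 3 ways to pair the lists, one-sided, p = 0.333, the smallest it can give).

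Shared regions were the strong ones and line-specific regions the middling ones, an order that the class rule itself favours. A shared region must pass the peak threshold in all 4 lists. A line-specific one must miss it in both lists of the other line. The order of strength is therefore a description of the classes and not a separate result. Median percentiles of shared regions were 64.7 and 74.5 in Panc10.05 and 74.7 and 67.2 in BxPC3. Panc10.05-specific regions had medians of 35.5 and 48.4, and BxPC3-specific regions of 51.1 and 43.7. Shared regions had a median width of 697 bp against 506 bp and 466.5 bp. A shared region merges peaks of more lists than a line-specific one, which by itself can widen it. These widths therefore do not show that the peaks were wider. Only 401 of the 5438 Panc10.05-specific regions (7.37%) and 983 of the 10922 BxPC3-specific regions (9.0%) lay above percentile 75 in both lists of their line, against 2478 shared regions (17.7%) above it in all 4. Just outside the classes, 3369 regions were in both Panc10.05 lists and 1 BxPC3 list, with a median percentile of 31.7 in that BxPC3 list. Likewise 3852 regions were in both BxPC3 lists and 1 Panc10.05 list, at a median of 31.5 there. By the class rule no line-specific region overlaps a P1-α2 peak of the other line. The nearest P1-α2 summit of the other line was a median of 19.4 kb away for Panc10.05-specific and 24.1 kb for BxPC3-specific regions. It was within 10 kb for 33.0% and 30.0% of them. No distance from unrelated positions was computed beside these, so they do not show whether the spacing is unusual.

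A larger share of the P1-α2 peaks lay at gene starts in both Panc10.05 lists than in either BxPC3 list. Of the peaks, 9.73% and 10.9% in the Panc10.05 lists and 6.09% and 5.49% in the BxPC3 lists had their summit within 1 kb of the start of a protein-coding gene. The groups did not overlap, and the means differed by 4.50 percentage points (10.3 ± 0.797 against 5.79 ± 0.428%, SD, n = 2 each, exact permutation p = 0.333, Benjamini-Hochberg adjusted over 3 position measures 0.333). Lists trimmed to equal length differed by 4.36 points. Peaks inside a gene span made up 49.5% and 50.2% in Panc10.05 and 47.5% and 47.6% in BxPC3. Peaks over 100 kb from any protein-coding gene made up 12.6% and 13.2% against 15.2% and 15.5%. These 2 measures did not overlap between lines either, each with an exact permutation p of 0.333. The P2-α8 lists had the same order of lines for starts, with 13% and 10.4% in Panc10.05 and 5.95% and 5.00% in BxPC3, while the AsPC1 lists were highest at 19.8% and 16.9%.

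The same order of lines was seen in the classes. A gene start lay within 1 kb of the middle of 677 Panc10.05-specific regions (12.4%, exact 95% interval 11.6 to 13.4), 320 BxPC3-specific regions (2.93%, 2.62 to 3.26) and 1132 shared regions (8.10%, 7.65 to 8.56). These intervals cover counting error only. At equal list length by fold enrichment the shares were 12.5%, 2.10% and 6.19%. BxPC3-specific regions were the most distal class, with 19.2% over 100 kb from a gene against 13.7% of Panc10.05-specific and 12.3% of shared regions, and a median distance to the nearest start of 44.1 kb against 23.6 and 27.2 kb. Start regions were weaker than the rest in each class. In Panc10.05-specific regions the median lower percentile was 15.3 at starts and 31.2 elsewhere, and the start share went from 22.1% in the weakest of 4 equal groups of the class to 6.41% in the strongest. In BxPC3-specific regions it went from 4.72% to 1.92% and in shared regions from 12.5% to 6.15%. In the strongest group the intervals of Panc10.05-specific (5.16 to 7.84%) and shared regions (5.38 to 7.0%) overlapped, while BxPC3-specific regions (1.43 to 2.50%) lay below both.

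**Figure D2:**
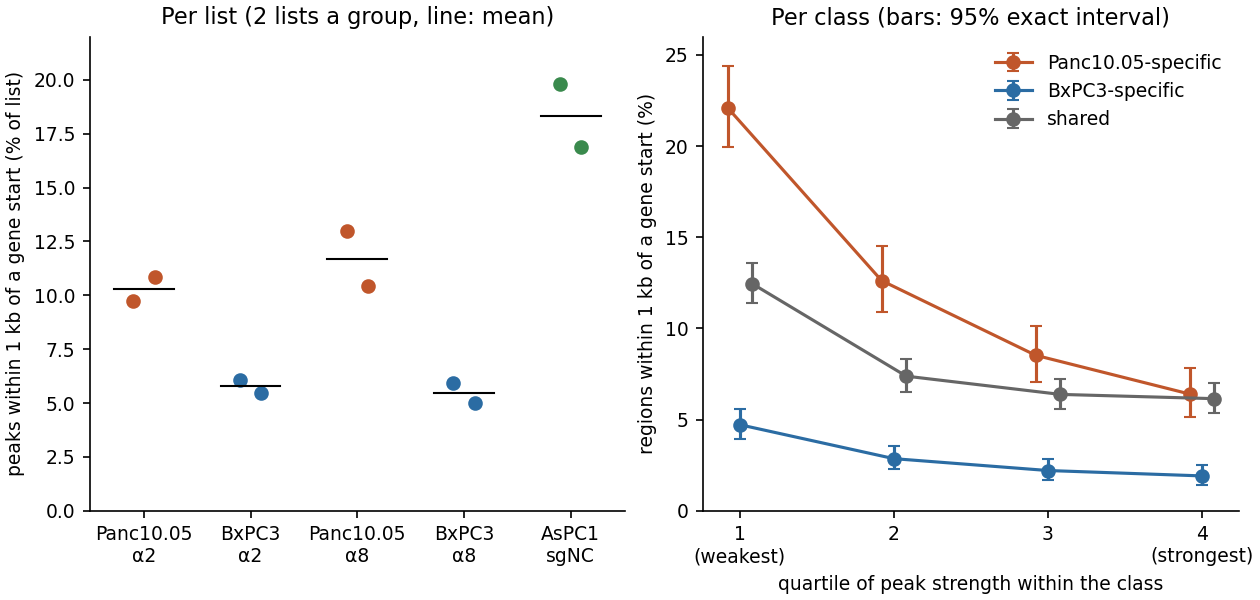
Left, the percent of peaks within 1 kb of a protein-coding gene start in each of the 2 lists per group, with the mean as a line. Right, the percent of regions at a start by quartile of strength in each class, with exact 95% intervals, falling from 22.1% to 6.41% in Panc10.05-specific and from 4.72% to 1.92% in BxPC3-specific regions.

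Promoters under BxPC3-specific regions had a lower median CpG number and G+C content than those under the other classes. The promoter windows that overlapped a Panc10.05-specific region had a median of 27 CpG dinucleotides and 65.7% G+C, close to those of shared regions with 23 CpG and 64.3%. Those under BxPC3-specific regions had a median of 8 CpG and 54.0%, and all promoters 21 CpG and 62.3%. The AP-1 motif TGANTCA, searched on both strands, was found in 18 of the 115 BxPC3-specific promoters (15.7%, exact interval 9.55 to 23.6), in 4.81% of the Panc10.05-specific and 9.79% of the shared promoters, and in 6.15% of all. A forkhead motif, TGTTTAC, was found in 9 of the 115 (7.83%, 3.64 to 14.3), in 2.40% and 3.05% of the others and in 2.85% of all promoters. The GATA motif GATAAG was found in 5.22%, 3.51% and 5.05% of BxPC3-specific, Panc10.05-specific and shared promoters, against 5.44% of all. A match of these letters is a description and not a mapped site, and the motif shares move with base composition, whose part was not tested.

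Regions at a start were ranked within each class by their lower percentile, after the values were seen, and the first 5 of each line were as follows. The Panc10.05-specific ones lay at LSM6, a U6 RNA-associated protein (percentiles 94.2 and 91.9), at TOLLIP, which encodes the Toll-interacting protein (90.9 and 94.4), at FASTKD1, a mitochondrial RNA-binding protein (88.5 and 88.5), at the cytokine gene IL6 (87.7 and 93.1), and at PPID, a cyclophilin (86.7 and 90.95). The BxPC3-specific ones lay at MS4A10 (98.8 and 96.7), at LITAFD (94.5 and 95.1), at MAF, a bZIP transcription factor gene (94.3 and 98.2), at SLC2A9, a urate transporter gene (93.8 and 96.5), and at CD9, a tetraspanin gene (95.1 and 87.6). The FASTKD1 region had a peak in both BxPC3 P2-α8 lists, and the rest of these Panc10.05-specific ones in neither. In the Panc10.05 P2-α8 lists the MS4A10 region had a peak in both, those at MAF and SLC2A9 in replicate 1 alone, and those at LITAFD and CD9 in neither. The first shared one lay at PAOX, a polyamine oxidase, at 99.8 and 99.8 in Panc10.05 and 99.99 and 99.96 in BxPC3.

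The strongest line-specific regions of all lay inside genes or at up to 616 kb from one. In Panc10.05 a region inside CDH23, a cadherin gene, stood at percentiles 98.6 and 98.6 (chr10:71740099-71740949, 2.67 kb from its start), and a second one inside the same gene at 97.9 and 99.3. A region inside SH3TC1 (chr4:8238277-8239274) reached 98.9 and 99.5. PSD2, ZBTB18 and KCNK9 had regions of the same rank. The top region by this order was 616 kb from its nearest gene, MAGEB5. All 8 regions of the rule had a peak in both Panc10.05 P2-α8 lists and none in a BxPC3 P2-α8 list, and 5 of the 8 also had one in both AsPC1 lists.

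In BxPC3 the strongest region lay inside PTGFRN, which encodes a prostaglandin F receptor regulator, at percentiles 99.9 and 98.9 (chr1:116982143-116982788). Regions inside TBC1D22A (99.6 and 98.9), SLC13A3, a dicarboxylate transporter gene (99.2 and 98.8), and SLC35D4 (99.4 and 98.9) followed. Regions nearest to HS3ST3B1, FAM216B and KCNU1 were of the same rank. The 8 regions of the rule all had a peak in both BxPC3 P2-α8 lists. Those at PTGFRN, TBC1D22A, HS3ST3B1 and SLC13A3 also had a peak in both Panc10.05 P2-α8 lists, although neither Panc10.05 P1-α2 list held them.

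The strongest shared regions stood above percentile 99.5 in all 4 lists. They lay inside ZFP62 (chr5:180828696-180829888), PHLDB2, MAP6 and ACSL5, near PAOX and LENG8, and 234 and 209 kb from KCND2 and SEMA3A. ACSL5, a long-chain acyl-CoA synthetase of gut and liver, was the one among them from the lists of metabolic genes, at 99.9, 99.9, 99.8 and 99.9 (chr10:112379327-112380597). The next in order lay beside APOA1, the main protein of high-density lipoprotein.

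Several genes carried many line-specific regions within their span and 50 kb around it. TENM4, a teneurin gene of 788 kb, had 25 BxPC3-specific and no Panc10.05-specific regions. The BxPC3 lists held 35 and 35 peaks there, and the Panc10.05 lists 5 and 5. PTGFRN, of 80.4 kb, had 12 BxPC3-specific regions, with 13 and 12 peaks in BxPC3 and 0 and 0 in Panc10.05, where the P2-α8 lists nonetheless held 5 and 3. KALRN and SNX29 had 14 each, DLC1 and KAZN 13 each, and GPHN and HIVEP3 11 each. KALRN also held 17 shared regions, GPHN and HIVEP3 11 each, SNX29 10, and DLC1 and KAZN 5 each. Their peaks were therefore not all of one class. At GPHN the BxPC3 lists held 33 and 28 peaks and the Panc10.05 lists 19 and 26. These genes spanned 521 kb (DLC1) to 1227 kb (GPHN), and the counts were not scaled by gene length.

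In Panc10.05, MICAL2, an actin-oxidising enzyme gene, had 10 regions of its line, with 15 and 21 peaks against 8 and 7 in BxPC3. CDH23 had 9, with 13 and 15 peaks against 4 and 3, and HPCAL1 had 9, with 15 and 17 against 3 and 2. GLIS3, a zinc finger gene of endocrine pancreas, had 9 beside 3 BxPC3-specific ones, and GBF1 had 8. The highest counts, 14 at NBPF19, 13 at NBPF20 and 8 at NOTCH2NLC, are uncertain: these are near-identical gene copies on chromosome 1 between which reads can be misplaced.

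Line-specific regions were unevenly spread over chromosomes. Panc10.05-specific regions were 33.2% of all line-specific regions, and outnumbered BxPC3-specific ones on 3 of 23 chromosomes: 583 against 501 on chromosome 2, 386 against 332 on chromosome 4, and 290 against 168 on chromosome 19. Their share of the line-specific regions was lowest on chromosome 13, with 33 against 399 (7.64%, exact 95% interval 5.32 to 10.6), and on chromosome 15, with 63 against 606 (9.42%). By the same share, chromosomes 16 (106 against 565) and 20 (107 against 515) came next.

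The same imbalance was seen in each list's own peaks. Chromosome 13 held 1.32% and 1.56% of the Panc10.05 and 2.61% and 2.69% of the BxPC3 P1-α2 peaks. In the P2-α8 lists it held 1.38% and 1.46% against 2.66% and 2.63%, and in AsPC1 1.80% and 1.68%. The share of peaks did not overlap between lines on 17 of 23 chromosomes for P1-α2, 8 higher in Panc10.05 and 9 in BxPC3. On 15 of those 17 the P2-α8 lists did not overlap either and went in the same direction. On chromosome 8 the P2-α8 lists went the opposite way, and on chromosome 10 they overlapped. These counts were not tested, and 2 lists against 2 can separate by chance. The P2-α8 libraries belong to the same library series as the P1-α2 libraries of their line. The lists hold no measure of DNA copy number.

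**Figure D3:**
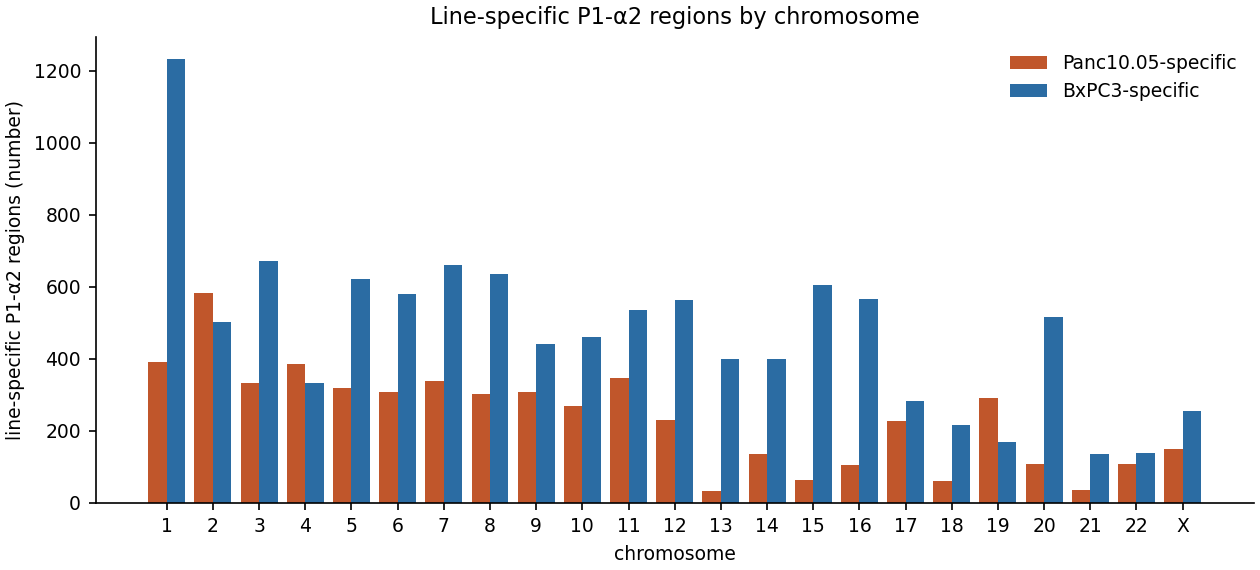
Number of Panc10.05-specific (orange) and BxPC3-specific (blue) P1-α2 regions on each chromosome. Orange exceeds blue on chromosomes 2, 4 and 19, and the widest gaps the other way are on chromosomes 1, 13, 15, 16 and 20.

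One stretch of chromosome 9 was bound in Panc10.05 and listed with no peak in BxPC3. The 1 Mb bin chr9:21000001-22000000, which holds the interferon alpha genes, MTAP and CDKN2A, had 18 Panc10.05-specific regions. It held 18 and 28 peaks in the Panc10.05 P1-α2 lists, 26 and 25 in the Panc10.05 P2-α8 lists, 10 and 6 in AsPC1, and 0 in each of the 4 BxPC3 lists of both isoforms. The gap between BxPC3 P1-α2 summits around it ran from 20582989 to 23380052, or 2797 kb, and contained 26 Panc10.05-specific regions. It was the only 1 of 49 bins with at least 10 Panc10.05-specific regions that had no BxPC3 P1-α2 peak.

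Of the 239 bins with at least 10 BxPC3-specific regions, 4 had no Panc10.05 P1-α2 peak. They were chr7:70000001-71000000 at AUTS2 with 11 regions, chr15:47000001-48000000 at SEMA6D with 10, chr15:23000001-24000000 at MAGEL2 and NDN with 10, and chr20:52000001-53000000 at ZFP64 and TSHZ2 with 10. At AUTS2 there were 12 and 13 P1-α2 peaks and 7 and 8 P2-α8 peaks in BxPC3, and none in the 4 Panc10.05 lists. On chromosome 20 the Panc10.05 P2-α8 lists held 3 and 2 peaks.

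Genes often deleted in PDAC, a list of 9, include those of the stretch on chromosome 9. A Panc10.05-specific region lay within 50 kb of 7 of the 9, a BxPC3-specific one near 2 and a shared one near 1. Over all 20037 protein-coding genes the shares were 34.6% for Panc10.05-specific, 41.7% for BxPC3-specific and 59.6% for shared regions. These shares of all genes move with the settings, and counts of a list are to be read against them. A region within 50 kb of a gene can lie nearer to another gene. At equal list length by fold enrichment they were 39.2%, 27.5% and 48.8%, and with a window of 10 kb 18.3%, 22.3% and 34.9%. Without Panc10.05 replicate 1, 53.9% of all genes had a Panc10.05-specific region, and without BxPC3 replicate 2, 59.5% had a BxPC3-specific one. CDKN2A, CDKN2B, MTAP and DMRTA1 are neighbours on chromosome 9, and SMAD4, ELAC1 and ME2 are neighbours on chromosome 18, so the 9 genes are not 9 separate loci. MTAP, which encodes a methionine salvage enzyme, had 4 and 8 peaks in Panc10.05 and 0 and 0 in BxPC3, and its strongest region reached 88.3 and 94.3 (chr9:21852380-21853906). CDKN2A, the p16 tumour suppressor, had 2 and 4 against 0 and 0. Near SMAD4, the mediator of TGF-β signalling, both Panc10.05 lists held 1 peak and both BxPC3 lists 0, for both isoforms. TGFBR2, a TGF-β receptor, was bound in both lines, with 4 and 5 peaks in Panc10.05 and 5 and 6 in BxPC3. MAP2K4 had 1 and 1 in BxPC3 and 0 and 0 in Panc10.05. At equal list length the counts for the 3 classes were 7, 0 and 1, and a window of 10 kb left 4 genes with a Panc10.05-specific region.

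**Figure D4:**
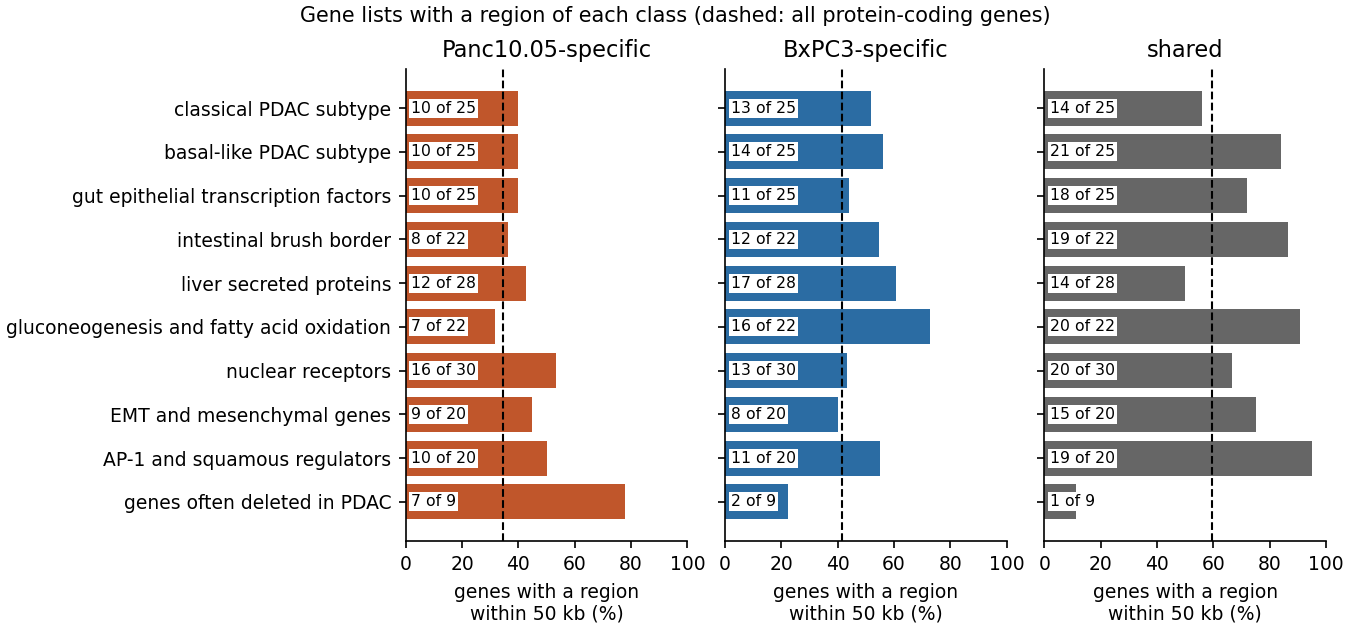
Percent of the genes of each of 10 lists with a region of each class within 50 kb, with the counts in the bars and the share over all protein-coding genes as a dashed line. Metabolic genes stand at 16 of 22 for BxPC3-specific regions, and the deleted genes at 7 of 9 for Panc10.05-specific and 1 of 9 for shared regions.

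Metabolic genes were often near BxPC3-specific and shared regions. Of 22 genes of gluconeogenesis and fatty acid oxidation, 16 had a BxPC3-specific region within 50 kb, 7 a Panc10.05-specific and 20 a shared one. These are 72.7%, 31.8% and 90.9%, against 41.7%, 34.6% and 59.6% of all genes. The median gene of the list had 1.5 BxPC3-specific and 0 Panc10.05-specific regions, where both medians were 0 over all genes. At equal list length the BxPC3-specific count was 15 (68.2%, against 27.5% of all genes), the Panc10.05-specific 8 (36.4% against 39.2%) and the shared 16 (72.7% against 48.8%). Without Panc10.05 replicate 1 the Panc10.05-specific count was 13 (59.1%, against 53.9% of all genes). CPT1A, the enzyme that admits fatty acids to mitochondria, had a BxPC3-specific region 1.22 kb away at percentiles 98.0 and 93.0 (chr11:68845494-68847074). PCK1, the gluconeogenic PEP carboxykinase, had one at 93.3 and 86.9 (chr20:57531858-57532666). FBP1 and FBP2, neighbouring genes for fructose-1,6-bisphosphatases, shared a region at 85.5 and 90.5 inside FBP1. In Panc10.05 the strongest lay 45.6 kb from PPARG, the adipogenic nuclear receptor, and at the start of another gene, at 80.3 and 73.1. CD36, a fatty acid uptake receptor, had a shared region 43.3 kb away, at 98.99 and 96.1 in Panc10.05 and 99.3 and 95.3 in BxPC3. ACAA2, a thiolase of β-oxidation, had one at 98.96, 98.0, 92.5 and 92.9.

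Liver secreted proteins, 28 genes, had a Panc10.05-specific region near 12, a BxPC3-specific one near 17 and a shared one near 14. These are 42.9%, 60.7% and 50%, against 34.6%, 41.7% and 59.6% of all genes. With equal list lengths the BxPC3-specific count was 10 (35.7%, against 27.5% of all genes). APOA1, APOA4, APOA5 and APOC3 form an apolipoprotein cluster on chromosome 11 and share their regions. The shared region next to APOA1 (chr11:116838398-116839588) stood at 99.5 and 99.9 in Panc10.05 and at 99.6 and 99.98 in BxPC3. In the same cluster a Panc10.05-specific region stood at 85.6 and 93.8 (chr11:116813668-116814522). ALB and AFP are neighbouring genes for albumin and alpha-fetoprotein. They had a single BxPC3-specific region between them, at 93.2 and 97.0 (chr4:73432045-73432677), and no Panc10.05-specific or shared one. AFP also had 1 region in another combination of lists. F7, coagulation factor VII, had a BxPC3-specific region at its start at 69.4 and 77.0 (chr13:113105580-113105959), while the neighbouring F10 start carried the Panc10.05-specific region with the motif CAAAGTCCA. The adjacent coagulation genes had regions of opposite classes at their starts.

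Intestinal brush border genes were mainly near shared regions, 19 of 22 (86.4%, against 59.6% of all genes). A Panc10.05-specific region lay near 8 (36.4% against 34.6%) and a BxPC3-specific one near 12 (54.5% against 41.7%). At equal list length the counts in the same order were 18, 9 and 8 (81.8%, 40.9% and 36.4%). The shares of all genes were then 48.8%, 39.2% and 27.5%. DPP4, a membrane dipeptidase, had a shared region at 99.4, 99.4, 99.5 and 97.0, and ANPEP, aminopeptidase N, one at 97.3, 96.0, 99.5 and 93.9. CDHR2, a protocadherin that links microvilli, was at 98.5, 93.4, 95.2 and 96.8, and VIL1, the actin bundler villin, at 93.9, 94.8, 89.1 and 91.4. Line-specific regions lay within 50 kb of several of these genes as well, with 5 BxPC3-specific ones for ANPEP and 3 Panc10.05-specific ones for VIL1. The strongest for ANPEP lay inside the gene at 73.0 and 82.5. The strongest for VIL1, at 30.0 and 43.2, lay 18.8 kb from VIL1 and at the start of another gene. SLC5A1, the glucose transporter SGLT1, had 3 BxPC3-specific regions and no Panc10.05-specific one, the strongest at 91.7 and 87.2. MEP1B, a meprin subunit gene, had 6 and 0, and the transmembrane mucin gene MUC13 5 and 1. CDHR5 and USH1C, a second protocadherin and its scaffold harmonin, had 2 Panc10.05-specific regions each and no BxPC3-specific one, at 47.4 and 84.0 and at 60.1 and 40.9.

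PDAC subtype markers of both kinds were near regions of each class. Of 25 classical markers, 10 had a Panc10.05-specific, 13 a BxPC3-specific and 14 a shared region. Of 25 basal-like markers the counts were 10, 14 and 21. Both sets of counts are near or above the shares over all genes. At equal length, where the shares of all genes were 39.2%, 27.5% and 48.8%, the classical counts were 9, 11 and 12 (36%, 44% and 48%). The basal-like counts were then 12, 10 and 16 (48%, 40% and 64%). Without BxPC3 replicate 2 the BxPC3-specific count was 22 for classical (88%) and 21 for basal-like markers (84%), against 59.5% of all genes. GATA6, a transcription factor of the classical subtype, had 3 BxPC3-specific regions, 1 shared and no Panc10.05-specific one, the strongest of the first at 86.8 and 91.4 (chr18:22211896-22212639). KRT20 had a BxPC3-specific region at 88.1 and 77.5. PLA2G10, a secreted phospholipase gene, had 2 Panc10.05-specific regions, the strongest at 72.9 and 73.0, and 3 BxPC3-specific ones. CTSE, which encodes cathepsin E, had 2 shared regions and no line-specific one, with 4 further regions in other combinations of lists. The strongest shared region of CTSE stood at 99.05 and 99.8 in Panc10.05 and 91.0 and 92.3 in BxPC3.

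Among basal-like markers, KRT5, KRT6A and KRT6C share a keratin cluster on chromosome 12. Each had 2 BxPC3-specific regions within 50 kb, the strongest the same one for all, at 86.4 and 95.1 inside KRT5 (chr12:52518398-52518902). All 3 also had a Panc10.05-specific region in common, at 35.96 and 38.4 (chr12:52496524-52496923). TP63, the squamous master regulator, had 6 shared and 3 BxPC3-specific regions and no Panc10.05-specific one, with the strongest shared region at 89.8, 84.0, 96.1 and 91.1. KRT7 had 2 Panc10.05-specific and 5 shared regions, and KRT15 1 Panc10.05-specific region at 69.5 and 55.3. SLC2A1, the glucose transporter GLUT1, had its strongest shared region 40.2 kb away at 98.4, 97.9, 99.1 and 99.9.

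Gut epithelial transcription factor genes, 25 in all, had Panc10.05-specific regions near 10, BxPC3-specific near 11 and shared near 18, or 40%, 44% and 72%. The line-specific shares are near those of all genes, 34.6% and 41.7%. At equal list length the BxPC3-specific count was 4 (16%, against 27.5% of all genes), and without Panc10.05 replicate 1 the Panc10.05-specific count was 17 (68%, against 53.9%). CDX1, an intestinal homeobox gene, had 3 Panc10.05-specific regions and no BxPC3-specific one, the strongest 44.2 kb away at 80.4 and 91.1 (chr5:150121941-150122572). ONECUT2, a homeobox gene of liver and gut, had a shared region at 99.1, 99.5, 96.2 and 95.9, and ELF3, an epithelial ETS factor, one at 94.0, 89.3, 88.1 and 99.2.

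Nuclear receptor genes were near a Panc10.05-specific region in 16 of 30 cases (53.3%, against 34.6% of all genes). They were near a BxPC3-specific one in 13 (43.3% against 41.7%) and near a shared one in 20 (66.7% against 59.6%). With the window cut to 10 kb the counts were 10, 10 and 18, or 33.3%, 33.3% and 60%, against 18.3%, 22.3% and 34.9% of all genes. At equal list length the counts within 50 kb were 15, 10 and 14 of 30, against 39.2%, 27.5% and 48.8% of all genes. The share near a shared region, 46.7%, was then below that of all genes. NR2F6, an orphan receptor of the COUP-TF family, had 3 Panc10.05-specific regions, one of them at its start at 63.0 and 66.3 (chr19:17245608-17247343). NR4A1, an immediate-early orphan receptor, had 2, the strongest 45.3 kb away at 75.9 and 83.8. NR3C2, the mineralocorticoid receptor, had 2, up to 68.9 and 91.9. Neither gene had a BxPC3-specific or shared region, but 5 and 3 further regions stood in other combinations of lists. RORA, a clock-linked orphan receptor, had 5 BxPC3-specific and 4 shared regions, and NR1I2, the xenobiotic receptor PXR, 3 and 3. RARB had 1 BxPC3-specific region at 80.7 and 75.9 and no Panc10.05-specific or shared one, beside 5 regions in other combinations of lists. THRB had 5 shared regions, the strongest at 97.4, 99.1, 97.2 and 98.3.

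Genes of AP-1 and squamous regulators, 20 in all, had a shared region near 19, a Panc10.05-specific one near 10 and a BxPC3-specific one near 11. These are 95%, 50% and 55%, against 59.6%, 34.6% and 41.7% of all genes. Without Panc10.05 replicate 1 the Panc10.05-specific count was 16 (80%, against 53.9% of all genes), and without BxPC3 replicate 2 the BxPC3-specific count was 17 (85%, against 59.5%). Members of the AP-1 family differed in their line-specific regions, but those named here all had shared regions as well. FOSL2 had 3 Panc10.05-specific regions and no BxPC3-specific one, at up to 91.2 and 93.8 (chr2:28367663-28368285), JUNB had 4 and 0, at up to 64.6 and 75.2, and FOSL1 3 and 0. JUN had 4 BxPC3-specific regions and no Panc10.05-specific one, at up to 89.0 and 78.6 (chr1:58819676-58820270), and FOS 2 and 0. JUND had 3 Panc10.05-specific and 2 BxPC3-specific regions, and ATF3 had neither kind. Shared regions numbered 4 at FOSL2, 3 at JUNB, 2 each at FOSL1 and JUN, and 5 each at JUND and ATF3. FOS also had 6 shared regions, the strongest 43.8 kb away at 98.1, 89.2, 97.9 and 99.2. TFAP2A had 2 Panc10.05-specific regions, at up to 81.8 and 82.9.

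Mesenchymal genes, 20 in all, had a Panc10.05-specific region near 9, a BxPC3-specific one near 8 and a shared one near 15. These are 45%, 40% and 75%, against 34.6%, 41.7% and 59.6% of all genes. The BxPC3-specific count was 4 at equal list length (20%, against 27.5%), and the Panc10.05-specific count was 15 without Panc10.05 replicate 1 (75%, against 53.9%). TWIST2 had a Panc10.05-specific region at 87.3 and 91.1, 0.03 kb outside the gene span but 62.8 kb from the nearest gene start. A shared region lay inside TWIST2 at 23.9, 24.9, 44.8 and 60.6. TNC, which encodes the matrix protein tenascin C, had 2 Panc10.05-specific regions, at up to 74.2 and 75.4. The receptor kinase gene AXL also had 2, at up to 75.3 and 61.3. CDH2, N-cadherin, had no Panc10.05-specific or shared region and 6 in other combinations of lists. Its 2 BxPC3-specific regions reached 95.5 and 98.4 (chr18:28167627-28168278). ZEB2 had 3, at up to 90.01 and 88.4. SNAI1 had 6 shared regions, the strongest at 98.4, 96.3, 94.9 and 91.5.

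The P2-α8 lists, which took no part in the classes, followed the line, more for Panc10.05-specific than for BxPC3-specific regions. A peak overlapped 82.1% and 77.6% of Panc10.05-specific P1-α2 regions in the Panc10.05 P2-α8 lists, and 1.14% and 1.36% in the BxPC3 P2-α8 lists. BxPC3-specific regions had a peak for 25.0% and 32.5% in the BxPC3 and for 17.7% and 13.5% in the Panc10.05 P2-α8 lists. Within each class the lists of the 2 lines did not overlap, and 0.333 is the smallest p an exact permutation test could give. The BxPC3 P2-α8 lists were much shorter, at 12681 and 14666 peaks against 39111 and 33646, and 52.6% and 57.2% of the shared regions had a peak in them against 92.0% and 91.3% in the Panc10.05 ones. Among BxPC3-specific regions above percentile 75 in both P1-α2 lists, 61.4% and 72.8% had a BxPC3 P2-α8 peak. A total of 1121 BxPC3-specific regions (10.3%) were in both Panc10.05 P2-α8 lists, while 15 Panc10.05-specific regions (0.276%) were in both BxPC3 P2-α8 lists.

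AsPC1, with its endogenous HNF4α, held more of the Panc10.05-specific than of the BxPC3-specific regions. The AsPC1 lists overlapped 31.7% and 20.4% of Panc10.05-specific, 12.3% and 8.60% of BxPC3-specific and 50.4% and 42.3% of shared regions. At gene starts 68.5% and 44.3% of the Panc10.05-specific regions had an AsPC1 peak, against 26.5% and 17.0% elsewhere. The AsPC1 lists had a lower threshold for peaks (−log10 q of 2 rather than 8) and a high share of peaks at starts, so these shares are not on the same footing as those of the induced lines.

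**Figure D5:**
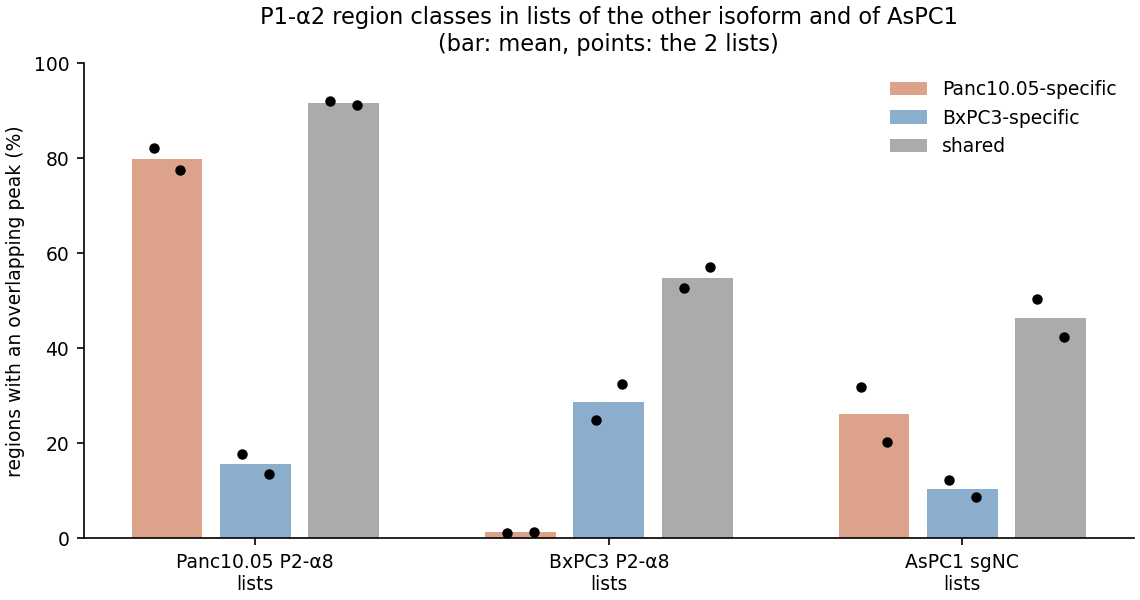
Percent of the regions of each P1-α2 class that overlap a peak in the P2-α8 lists of each line and in the AsPC1 sgNC lists, as the mean (bar) and the 2 lists (points). Panc10.05-specific regions stand at 82.1% and 77.6% in Panc10.05 P2-α8 and near 1% in BxPC3 P2-α8 lists.

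Shared regions differed in rank between the lines. Percentiles were recomputed among the 13980 shared regions, and a region was called shifted when both lists of one line stood at least 25 points above both lists of the other. This held for 951 regions higher in Panc10.05 (6.80%) and 1052 higher in BxPC3 (7.53%). With any of the 4 lists left out, 1655 to 2111 and 1824 to 2081 regions met the rule. The median difference between replicates was 11.5 points in Panc10.05 and 14.6 in BxPC3, against 16.5 between the line means. Gene starts were within 1 kb of 13.99% of regions higher in Panc10.05, 2.38% of those higher in BxPC3 and 8.13% of the rest. This is the order of the line-specific classes within regions that both lines bind. P2-α8 had a peak at 34.8% and 40.3% of the first and 70.2% and 78.2% of the second in BxPC3.

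Among the regions with the largest shift to Panc10.05 was one inside ABCC3, a bile salt and conjugate exporter gene, at 85.9 and 91.5 in Panc10.05 and 2.55 and 4.91 in BxPC3 (chr17:50638560-50639860). One lay at the start of RBKS, ribokinase, at 92.7 and 94.3 against 6.80 and 13. Others were nearest to KRABD3 (96.0 and 97.0 against 4.38 and 6.86), KCNK17 (89.6 and 97.8 against 2.64 and 3.15) and SLC45A4. In the other direction a region inside STIM1, the calcium sensor of the endoplasmic reticulum, stood at 9.27 and 10.3 in Panc10.05 and 96.2 and 98.96 in BxPC3 (chr11:3932998-3933750). One nearest to NUP214, a nuclear pore gene, stood at 1.71 and 9.80 against 91.8 and 90.2, and one nearest to DYNLRB2 at 3.05 and 10.6 against 98.6 and 98.8. The regions nearest to GOLGA6L22 and ATP10A, both on chromosome 15, stood at 10.9 and 3.87 and at 12.7 and 4.87 in Panc10.05, and at 94.0 and 92.1 and at 92.5 and 92.0 in BxPC3.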

How the data were processed

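Peaks were called per sample: the authors deposited a narrowPeak list for each library. In the deposited lists the fold enrichment is a linear ratio, p and q are −log10 values, and an integer score repeats the q value. The submitters' processing notes name Bowtie2 2.2.9, MACS2 2.2.7 and the builds hg38 and mm10. Read depth and the control used for calling are not given in the sources used here, and the input libraries were not used here. Peak names carry a q threshold, and −log10 q was at least 8 in every Panc10.05 and BxPC3 list.

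Gene names, spans and promoters came from RefSeq tables of GRCh38.p14. Starts were listed for 15843 of 20037 protein-coding genes, and both ends of the span stood in for the other 4194. The promoter table used here is incomplete and has no rows for 1 chromosome. In the 10 lists used, 5.00 to 19.8% of summits lay within 1 kb of a start, and 2.65 to 3.56% after a shift of 100 kb.

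Overlaps were computed in Python 3.11.15 with numpy 2.4.6 and pandas 2.3.3, tested on simulated data and checked against bedtools 2.31.1, with 0 differing calls. Intervals are exact (Clopper-Pearson), and tests are exact permutation tests over lists.

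The 4 lists, the 10 gene lists (226 genes, all matched) and the rules were chosen with earlier results of these data known. Named were the 8 strongest regions per class by the lower percentile over the lists that hold them, the 8 genes per line with most regions of that line within 50 kb, up to 4 genes per gene list and class, the 5 shared regions per direction with the largest rank shift, the stretches without a peak of the other line, and promoters with an HNF4 motif under such regions; a few of the genes so selected are not reported here. Alternatives were a −log10 q of at least 20, equal list lengths, reciprocal overlap of 50%, summits within 100 bp, other windows, single motifs, a replicate block and leaving out each replicate. Listed starts alone, and equal length and the class settings for start shares, were added after seeing the data.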

Additional observations from a re-analysis of the deposited data

How the results depend on the processing

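The differences between lines in peak number, similarity and gene position kept their direction under every alternative run, and no test could pass a threshold of 0.05 with 2 lists a line. The order of the line-specific counts did not: equal list length gave 6143 BxPC3-specific regions by fold enrichment and 6590 by −log10 p, against 6257 and 6655 Panc10.05-specific ones. Leaving out each replicate in turn gave 6300 to 11406 Panc10.05-specific, 11420 to 19570 BxPC3-specific and 14504 to 17340 shared regions; the highest counts came without Panc10.05 replicate 1 and without BxPC3 replicate 2. P2-α8 peaks of the same line lay at 79.9% of Panc10.05-specific regions on average, 84.2% at a −log10 q of at least 20, 85.0% at equal length and 64.6 to 81.0% with a replicate left out. For BxPC3-specific regions these were 28.8%, 35.3%, 39.2% and 18.6 to 29.4%. Peaks of the other line, in the Panc10.05 P2-α8 lists, lay at 15.6%, 19.4% and 21.7% of BxPC3-specific regions under the first 3 of these settings. Without Panc10.05 replicate 2 they lay at 26.5%, close to the 29.4% in the BxPC3 P2-α8 lists. A shift of 50 points left 168 shared regions higher in Panc10.05 and 202 higher in BxPC3, and leaving out a replicate, which loosens the rule, gave 1655 to 2111 and 1824 to 2081. Counts of genes in the lists moved with the same settings, as did the share of all genes. The cause of these moves was not tested apart from fewer lists or peaks. The replicate block gave the same differences, -0.37 for log2 peak number, 0.230 for Dice overlap and 4.50 points for starts, as it must with equal numbers; the numbers were not taken as pairs, since differences between replicates 1 and 2 correlated across lines at r = 0.0472 over 58619 regions. The start difference was 3.93 to 5.06 points without each replicate and 3.87 with listed starts alone. Read depth is unknown, so the absence of a peak is not absence of binding.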
